A study of Danio rerio with 7 samples.

Results

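Intergenic ATAC-seq peaks lying within 10 kb of the nearest annotated promoter were compared between *kdrl*:GFP+ and *kdrl*:GFP- cells of zebrafish embryos. Members were the peaks in the deposited table of differential peaks that were annotated as intergenic and whose distance to the nearest RefSeq start site was at most 10000 bp on either side. Of 44025 peaks, 3216 met this rule (7.30%), which was 10.8% of the 29709 intergenic peaks. They were assigned to 2401 promoters. Distances run to the centre of a peak, so a wide peak can cover the start site itself. The rule used position only, so it set neither the direction nor the size of any difference.

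Both cell populations were sorted by flow cytometry from wild-type embryos that carried Tg(kdrl:GFP)s843, a transgene in which regulatory sequence of *kdrl*, a vascular endothelial growth factor receptor gene of endothelium, drives GFP. The sorted cells came from whole embryos at 26 to 27 hours post fertilization, with 40000 to 50000 cells per library and 16 cycles of amplification. The labels give 3 *kdrl*:GFP+ libraries, 3 *kdrl*:GFP- libraries and 1 library of genomic DNA. The genomic DNA came from embryos at 28 to 30 hours post fertilization (30000 cells, 9 cycles). The study instead reports a comparison of 2 *kdrl*:GFP+ with 4 *kdrl*:GFP- samples, after 2 outlying *kdrl*:GFP+ replicates were removed. Which of the labelled libraries entered the pooled values is not stated. The gate for *kdrl*:GFP+ cells took the cells with high GFP, and cells with low GFP were left out of it. Both populations are mixtures, since *kdrl*:GFP- cells hold many cell types of the embryo and the transgene also marks some cells that derive from endothelium.

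ATAC-seq reads chromatin accessibility from the insertions of a transposase into DNA that is free of nucleosomes. Intergenic DNA close to a promoter often holds enhancers, short elements bound by transcription factors that raise the activity of a promoter in particular cells. An accessible element is not thereby an active one, and its nearest promoter is not always the one it acts on. No sequence of these regions is shown, since the genome build of the coordinates, Zv9, was not analysed here.

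Each peak had 1 concentration per population, the log2 of its mean normalized reads over the pooled libraries. The difference reported below is the concentration in *kdrl*:GFP+ cells minus that in *kdrl*:GFP- cells, so that positive values mark peaks more accessible in *kdrl*:GFP+ cells and 3 on this scale is 8-fold. No value of a single library was analysed here, depth per library is unknown, and no spread between replicates or test could be given. The table held peaks that had already passed the differential threshold of the study, hence no peak lies near a difference of 0. In a mixed population, more cells with an open region and a region more open in each cell cannot be told apart.

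Peaks of the endothelial and neural marker genes followed the sort. Of 72 peaks assigned to endothelial markers, 64 had the higher concentration in *kdrl*:GFP+ cells, and 9 of 11 of these markers had a peak. By contrast, 11 of 89 peaks of the neural markers were higher. All 15 peaks of the myeloid markers and 3 of 4 of the erythroid markers were higher, so marker regions of blood cells moved with those of endothelium. For muscle markers 4 of 11 peaks were higher, and for epidermal markers 4 of 7, beside 44.7% of all peaks. The part of these other cell types in the differences below was not tested.

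Intergenic peaks near promoters were split between the populations much as the whole table was. In *kdrl*:GFP+ cells 1407 of 3216 members were higher (43.8%), beside 44.7% of all peaks. A difference above 3 was found for 566 members (17.6%, beside 17.8% of all peaks) and one below -3 for 435 members (13.5%, beside 13.3%). The median difference was -1.17 over members and -1.19 over all peaks, with quartiles of -2.16 and 2.16 and a range from -8.93 to 10.69. Members that were higher had a median of 2.43, whereas those that were lower had a median of -1.99. The median member had a concentration of 5.84 in *kdrl*:GFP+ cells beside 5.86 in *kdrl*:GFP- cells. As a group, these regions thus had shares and a median close to those of the whole table. How the libraries were scaled is not given in the sources used here. Centred on the median of all peaks, the 213 members between -1.19 and 0 would count as higher, and such regions are marked below where a group is described as lower throughout.

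**Figure D1:**
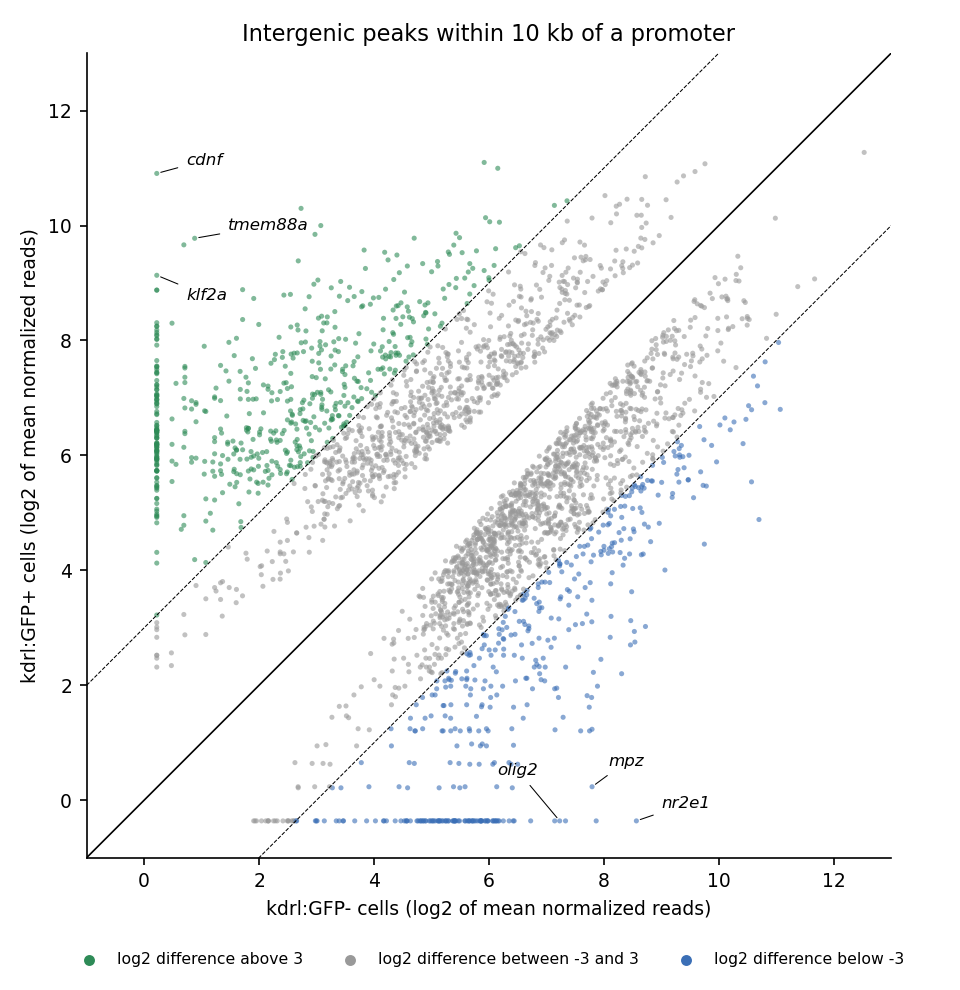
Concentration of each of the 3216 members in *kdrl*:GFP+ cells (y axis) against *kdrl*:GFP- cells (x axis), both as log2 of mean normalized reads, with each point 1 peak, the solid line equality and the dashed lines a difference of 3 either way. The rows of points at the left and the bottom are the 124 and 118 members at the lowest concentration of a population, and the gap along the diagonal reflects a table that lists differential peaks only.

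Some of the largest differences rest on a shared lowest value. The lowest concentration in the table was 0.22 for *kdrl*:GFP- cells and -0.36 for *kdrl*:GFP+ cells. Of the members above 3, 116 (20.5%) had the lowest value in *kdrl*:GFP- cells, and of those below -3, 100 (23.0%) had the lowest value in *kdrl*:GFP+ cells. The size of such a difference depends on that value, and it is mostly given below as a level in one population beside the lowest value in the other.

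Other classes of peak were compared with the members as a description. Intergenic peaks 10 to 100 kb from a promoter (17134) were higher in 44.6% of cases with a median of -1.20. Beyond 100 kb (9359 peaks) the share was 39.6% and the median -1.36, and 13.4% lay above 3. Peaks over a promoter (899) were higher in 43.0% of cases with a median of -0.99. Fewer of these promoter peaks were far from 0, with 11.1% above 3 and 7.01% below -3. The share above 3 among members (17.6%) was close to that of intergenic peaks at 10 to 100 kb (17.9%), first-intron peaks (17.5%) and all peaks (17.8%). The share was smaller among promoter peaks and peaks beyond 100 kb, and these differences were not tested.

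Most members lay upstream of the start site, 2660 against 556 downstream, and the median distance was 5359.5 bp. The rule shaped this split, because downstream peaks annotated within a gene were left out. Of 3612 first-intron peaks, for example, 3395 lay downstream. Upstream of the start site, the share higher in *kdrl*:GFP+ cells was 37.5% within 2 kb (124 of 331), 42.1% from 2 to 4 kb (281 of 667), 46.7% from 4 to 6 kb (279 of 597), 45.7% from 6 to 8 kb (264 of 578) and 47.8% from 8 to 10 kb (233 of 487). Downstream, 3 of 12, 34 of 96, 48 of 126, 65 of 152 and 76 of 170 were higher in the same classes. On both sides, then, the class of members nearest the start site had the smallest share of peaks higher in *kdrl*:GFP+ cells, although it held only 12 peaks downstream. All 9 of these 12 that were lower lay beside microRNA genes, for which the start site given is not a promoter. Peaks annotated as over a promoter were outside the rule, and 43.0% of these 899 were higher, so no steady fall towards the start site is shown. Counted over all distances, 481 upstream members were above 3 (18.1%) and 344 below -3 (12.9%). Downstream there were 85 (15.3%) and 91 (16.4%), beside 17.8% and 13.3% of all peaks.

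**Figure D2:**
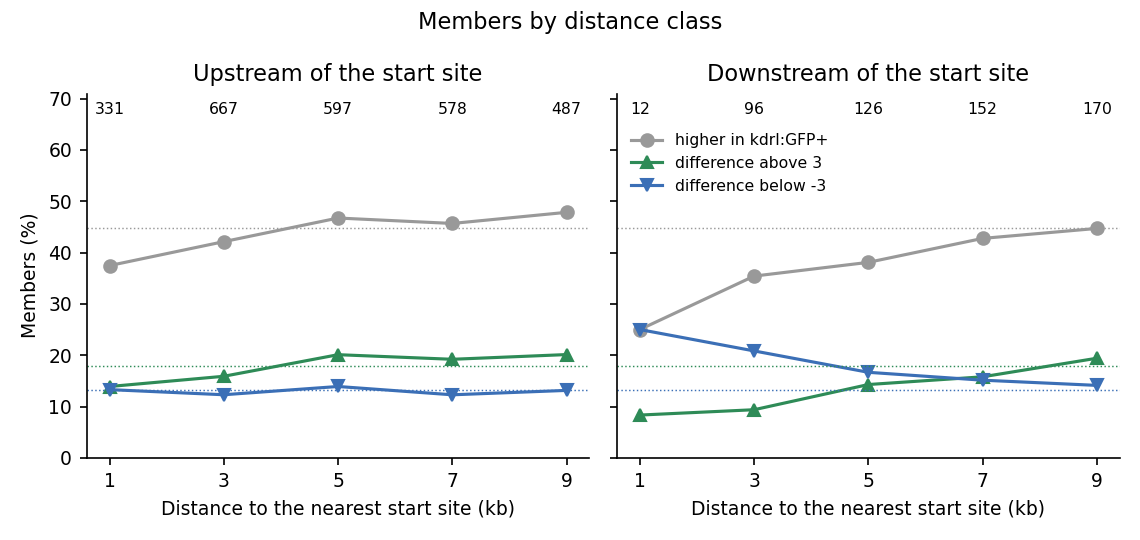
Percent of members in 2 kb classes of distance from the nearest start site, upstream on the left and downstream on the right, that were higher in *kdrl*:GFP+ cells (circles), above a log2 difference of 3 (upward triangles) or below -3 (downward triangles), with the number of members along the top and dotted lines at the shares over all peaks. Upstream, the share that was higher is 37.5% within 2 kb and 47.8% from 8 to 10 kb.

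The share also varied with width and chromosome. The median member was 515 bp wide, with quartiles of 390 and 740.25 bp, and the share higher in *kdrl*:GFP+ cells was 48.8% in the narrowest and 39.9% in the widest of 4 equal classes of width. Across chromosomes this share ran from 35.5% on chromosome 5 (197 members) to 58.3% on chromosome 4 (96 members), where 51.2% of all peaks were higher. On chromosome 5, 40.7% of all peaks were higher. In the gene models deposited with the series, 101 members (3.14%) overlapped the span of a gene in spite of their intergenic annotation, and 50 of these were higher.

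Among single regions, the largest differences in favour of *kdrl*:GFP+ cells were found near *cdnf*, *gcnt4a*, *klf2a*, *tmem88a*, *cyr61* (now *ccn1l2*), *ccdc6a*, *mccc1* and *stab2*. The peak assigned to *cdnf*, a neurotrophic factor gene, lay on chromosome 4 from 8644178 to 8645754 (Zv9), downstream of the start site by 9672 bp, with 10.91 in *kdrl*:GFP+ cells beside the lowest value in *kdrl*:GFP- cells. For *klf2a*, which encodes a transcription factor induced in endothelium by blood flow, the peak lay on chromosome 22 from 16038361 to 16039056, 5673 bp upstream, with 9.13 beside the lowest value. The 2 of these 8 regions that were above the lowest value in *kdrl*:GFP- cells were those near *gcnt4a*, a glycosyltransferase gene, with 9.66 against 0.69 (difference 8.97), and near *tmem88a*, which encodes a membrane protein, with 9.78 against 0.88 (difference 8.90). The *tmem88a* region lay on chromosome 10 from 22967884 to 22968573, 4129 bp upstream. Regions near *cyr61* and *ccdc6a* had 8.88 each, that near *mccc1* 8.31 and that near *stab2*, a scavenger receptor gene of endothelium, 8.25, all beside the lowest value in *kdrl*:GFP- cells.

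Of the 8 members with the most negative differences, 3 were assigned to genes of the neural list used below, *nr2e1*, *olig2* and *sox19a*. The region of *nr2e1*, which encodes a nuclear receptor of neural stem cells, had 8.57 in *kdrl*:GFP- cells beside the lowest value in *kdrl*:GFP+ cells (difference -8.93) and lay on chromosome 20 from 32490620 to 32491685, 5875 bp upstream. Next came *onecutl*, a homeobox gene (7.87), *alcamb*, a cell adhesion gene (7.33), and *olig2*, which encodes a factor of motor neuron and oligodendrocyte progenitors (7.23). These are levels in *kdrl*:GFP- cells, each beside the lowest value in *kdrl*:GFP+ cells. The region of *mpz*, a gene of the myelin sheath, was the only one of the 8 most negative that lay above the lowest value in *kdrl*:GFP+ cells, with 0.23 against 7.79. The remaining 3 were *sox19a*, an early neural transcription factor gene (7.14), *mybpc1*, a gene of the muscle sarcomere (6.73), and *capn12*, a protease gene (6.44). These too are levels in *kdrl*:GFP- cells beside the lowest value in *kdrl*:GFP+ cells.

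A few members were strongly accessible in both populations. The region assigned to *zgc:158463* had 11.27 in GFP+ and 12.53 in GFP- cells and was 27257 bp wide, and concentrations are not scaled by width. Centred 2359 bp upstream, this region also covers the start site. Next by the lower of the 2 concentrations were *zswim6* (10.13 and 10.98), *zgc:162612*, now *foxd7* (11.07 and 9.76), *si:ch211-220f12.1*, now *frmd4a* (10.94 and 9.59), and *spry4*, an inhibitor of receptor tyrosine kinase signalling (9.47 and 10.33). These regions were open in both populations and differed between them by less than 3. At the distance limit itself, the last members were assigned to *chst12a* at 9994 bp (difference 2.17) and *sssca1* at 9998 bp (4.51). The first intergenic peaks past it were those of *cnpy1* at 10007 bp (-2.36) and *si:dkeyp-117h8.4* at 10010 bp (-3.93), both upstream.

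Members were next grouped by the nearest gene, using lists of endothelial, blood, neural, neural crest, muscle and mesoderm, epithelial, Hox, ribosomal protein and microRNA genes. Over all peaks 44.7% were higher in *kdrl*:GFP+ cells, 17.8% were above 3, 13.3% were below -3 and the median difference was -1.19. The counts of each list are given beside the share that was higher among all peaks of the listed genes. Because the lists were chosen with earlier results of these data known, their shares and medians are a description and no independent support. Endothelium and blood share early transcription factors, because the first blood stem cells of the embryo arise from the haemogenic endothelium of the dorsal aorta.

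**Figure D3:**
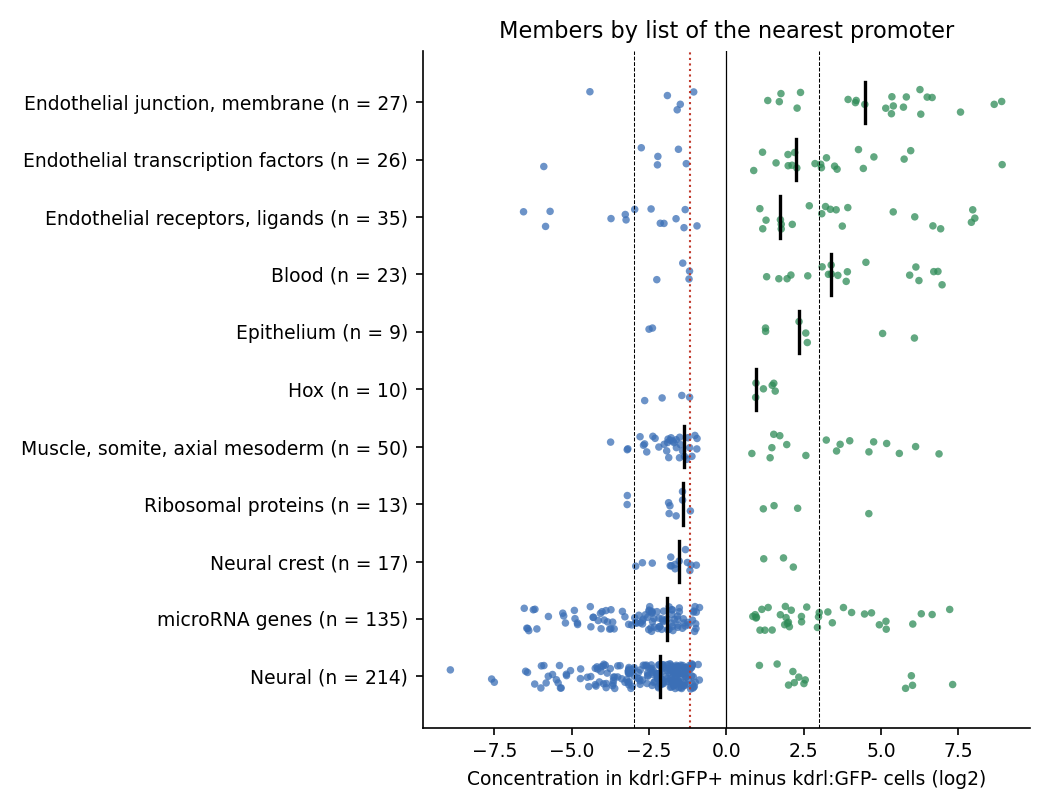
Difference in concentration (*kdrl*:GFP+ minus *kdrl*:GFP- cells, log2) of each member whose nearest promoter belongs to a list, with each point 1 peak, black bars the median of the list, dashed lines at 3 and -3 and the red dotted line at the median of all peaks, -1.19. Members of the endothelial and blood lists lie mostly to the right of 0, whereas 202 of 214 members of the neural list lie to the left.

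For genes of endothelial transcription factors, 20 of 26 members at 17 promoters were higher in *kdrl*:GFP+ cells, 11 were above 3 (42.3%) and 1 was below -3 (3.85%). Their median difference was 2.24, and 55.2% of all peaks of these listed genes were higher. The gene *hhex* was placed at separate positions on chromosome 12, with members of 3.05 and 3.07, and is counted at each. The region of *mef2cb*, a gene of heart and vessel development, had 9.57 against 3.83. Near *lmo2*, a cofactor gene of early blood and endothelium, the values were 9.37 against 5.11. For the haemato-endothelial factor *tal1* they were 6.07 against 3.79, and for *sox17*, a factor of arterial endothelium, 8.92 against 5.42. The ETS factor genes *fli1a* and *fli1b* had regions with 5.53 against 1.96 and 7.81 against 3.38. Differences of these 6 regions ran from 2.28 to 5.75. The *mef2cb* region was named for the size of its difference, and the others were chosen after their values were seen. Their shared direction is therefore no separate result. A second *fli1a* region was higher by less than any of them, and 6 of the 26 members were lower.

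Single genes of this list had regions on both sides. The gene *hey1*, a target of Notch, had 4 members. The 2 closest upstream of its start site, at 2292 and 2904 bp, were higher (6.18 beside the lowest value, and 7.92 against 3.16), as was 1 downstream (7.90 against 5.92). The fourth, 9556 bp upstream, was lower (6.56 against 8.78). At *klf6a*, 2 upstream members were lower, including the most negative of the list with 1.98 against 7.89, whereas 1 downstream was higher by 0.88. The *ets1* region had 3.39 against 5.62. At *tbx20*, a cardiac factor gene, the regions 5043 and 7070 bp upstream differed by -2.75 and 3.23.

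Receptors, ligands and other signalling genes of vessels were more evenly divided. Of 35 members at 27 genes, 21 were higher in *kdrl*:GFP+ cells (median 1.75), beside 55.9% higher among all peaks of these genes. Above 3 there were 13 members (37.1%) and below -3 there were 6 (17.1%). Without the peaks at the lowest concentration, 53.3% of 30 members were higher and the median was 1.13. Among receptors, *gpr182* had 8.18 and *agtr2* had 8.14 beside the lowest value, *clec14a*, a lectin gene of endothelium, had 10.00 against 3.07, and *flt4*, the receptor of vegfc, had 7.81 against 2.41. The apelin receptor gene *aplnrb* had 2 members that were higher, by 3.08 and 3.75, and *plxnd1*, a semaphorin receptor gene, had 2 that were higher, by 1.75 and 3.36. Other receptor genes had regions that were lower, namely *notch1a* (2.95 against 6.68), *s1pr1*, a sphingosine phosphate receptor gene (1.44 against 7.29), the chemokine receptor gene *cxcr4a* (5.56 against 7.70) and *nrp1b* (3.22 against 5.23). The 2 members of *notch3* differed by -2.97 and, within the shift of all peaks, by -0.95. Receptor genes were thus found on both sides.

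Ligand genes were on both sides too. The largest negative difference of the list was that of *angpt1*, the Tie2 ligand, with 1.23 against 7.79, and the other ligand of this receptor, *angpt2a*, had 6.90 beside the lowest value in *kdrl*:GFP- cells. Among Notch ligands, *jag1a* had 3.02 against 8.72, *jag2b* 2.64 against 5.88 and *dlc* 5.66 against 7.03, whereas *jag1b* had 5.52 against 4.35. The growth factor gene *vegfaa* was lower (4.77 against 7.21), and *vegfc* had neighbouring regions of opposite sign, -3.27 at 7350 bp and 1.77 at 5739 bp upstream. The 6 members of this list below -3 were beside *angpt1*, *s1pr1*, *jag1a*, *notch1a*, *vegfc* and *jag2b*.

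The region assigned to *kdrl* itself was 6138 bp wide and centred 3037 bp upstream, so it also covers the start site. It had 5.71 against 4.43, a difference of 1.28. The transgene in the sorted embryos also carries regulatory sequence of *kdrl*, so reads of the transgene and of the gene cannot be told apart there.

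The list of endothelial junction and membrane genes, which also holds others such as *cyr61*, *egfl7* and *dusp5*, had the highest median of the lists. Of 27 members at 16 genes, 22 were higher in *kdrl*:GFP+ cells, beside 69.7% higher among all peaks of these genes. The median was 4.47, and 17 members were above 3 (63.0%). Following *tmem88a* and *cyr61*, the largest difference was that of *rasip1*, a Ras-interacting gene of vessel lumen formation, with 10.30 against 2.73 on chromosome 16 from 14267089 to 14269094, 4224 bp upstream. The tetraspanin gene *tspan18a* had 8.36 against 1.71, *exoc3l1* had 8.80 against 2.55, and the adhesion gene *mcamb* had 7.29 against 1.48. At *cldn5b*, which encodes a claudin of endothelial tight junctions, 3 upstream members differed by distance. Those at 3690 and 2150 bp were higher (8.42 against 3.09 and 5.93 against 1.46), and that at 1126 bp had 5.57 against 6.63, a difference (-1.06) within the shift of all peaks. The 5 members of the list that were lower belonged to *amotl2a* (2 members), *cldn5a*, *pdcd10a* and *cldn5b*, and 1 of *amotl2a* was below -3 (-4.41).

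The gene *cx39.4* (now *gja4*), a gap junction gene of arterial endothelium in mammals, had 6 members, the largest number of any promoter with regions that were all higher in *kdrl*:GFP+ cells. They spanned 7851 bp upstream to 9347 bp downstream, and their concentrations were 7.51 against 1.94, 5.79 against 2.61, 8.77 against 3.40, 9.49 against 4.40, 7.69 against 5.13 and 8.05 against 4.59 from upstream to downstream. Differences ran from 2.57 to 5.58. Another 5 regions that were all higher belonged to *zgc:110340* (now *tcima*), with differences from 1.20 to 4.72. At *hs3st1*, a heparan sulfate sulfotransferase gene, 4 of 5 were higher, and the exception, 2258 bp downstream, had 2.89 against 4.86.

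Members beside blood genes were also mostly higher in the sorted GFP+ fraction, at 19 of 23 (13 genes, median 3.39), with 14 above 3 (60.9%) and none below -3. Of all peaks of these genes, 75.0% were higher. The thrombopoietin receptor gene *mpl* had 7.19 and the lysozyme gene *lyz* 7.06, each beside the lowest value in *kdrl*:GFP- cells. Near *mafbb*, whose counterpart in mammals acts in macrophages, the values were 9.38 against 2.68. The granulocyte receptor gene *csf3r* had 2 members, 6.95 against 0.83 and 7.83 against 3.32, and the myeloperoxidase gene *mpx* had 2 that were higher by 3.09 and 3.91. At *cebpb*, a factor of myeloid cells, all 3 members were higher, by 1.30, 2.63 and 3.30. The region of *runx1*, the factor needed for blood stem cells to emerge from endothelium, had 7.81 against 5.85, 4793 bp upstream. Regions that were lower belonged to *nfe2* (2 members), *mafba* and *klf17*, although *klf17*, an erythroid factor gene of fish, had 2 others that were higher (6.44 beside the lowest value, and 5.75 against 2.37). The list thus included regions of neutrophil and macrophage genes that were higher together with those of endothelial genes, and the part of sorted blood cells in the endothelial values was not tested.

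The neural list was the largest group and was lower in *kdrl*:GFP+ cells at 202 of 214 members of 107 genes (median -2.15). Here 68 members were below -3 (31.8%) and 4 above 3 (1.87%), and 15.0% of all peaks of these genes were higher. The gene *sox2*, which keeps neural progenitors undifferentiated, had 7 members, all lower, with differences from -3.12 to -1.30. The concentrations of these 7 were between 3.97 and 7.11 in *kdrl*:GFP+ cells and between 5.51 and 8.93 in *kdrl*:GFP- cells. The proneural factor gene *neurod4* had 5 members, all lower, from 7.90 against 9.68 to 3.05 against 7.51. At *olig1* 4 members were lower, from -4.24 to -2.55. A region each of *hmx3*, *six6b*, *zic1* and *mab21l2* was at the lowest value in *kdrl*:GFP+ cells and between 5.62 and 6.13 in *kdrl*:GFP- cells. The other members of *mab21l2* were above that value, with 5.79 against 7.45 and 3.70 against 5.88.

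A smaller set of 12 neural members went the other way. The homeobox gene *irx5b* had 7.53 beside the lowest value in *kdrl*:GFP- cells, *nr2f1a* had 6.92 against 0.90, *tfap2d* had the lowest value in *kdrl*:GFP- cells as well (difference 5.98), and *lhx8a* had 7.02 against 1.23. Of these, *nr2f1a* is known to act in atrial heart cells of zebrafish as well as in the nervous system. The other 8 were beside *eng2b*, *tlx2*, *irx4b*, *six3a*, *pax2a*, *emx1*, *gbx2* and *foxd1l*, with differences from 1.07 to 2.55.

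Neural crest genes had 17 members, of which 3 were higher, by 1.21 to 2.16, and none was beyond 3 either way (median -1.53), and 28.0% of all peaks of these genes were higher. All 4 members of *msxb* and all 3 of *snai1b* were lower, with 1 of each (-1.15 and -0.97) within the shift of all peaks. At muscle and mesoderm genes, 17 of 50 were higher (29 genes, median -1.39), with 10 above 3 and 3 below -3, beside 40.9% higher among all peaks of these genes. Regions of *actc1a*, a muscle actin gene (4 members), *foxa1* (3) and *flh* (3) were all lower, of which 1 of *flh* (-0.95) was within the shift of all peaks. Members above 3 belonged to *pvalb2* (9.85 against 2.97), *meox1* (6.83 against 0.71 and 7.29 against 3.73), a somite gene, *tnni1d* (7.36 against 1.77), *prdm1a*, *mylpfa*, *six1a* and *mespaa*. At *prdm1a*, the 2 members nearer the start site, at 2662 and 5645 bp upstream, were higher by 5.18 and 3.68, whereas the 2 farther ones, at 7235 and 8859 bp, differed by -1.90 and -2.79.

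The small lists were less uniform. Of 9 members at epithelial genes 7 were higher (median 2.35), beside 50.0% of all peaks of these genes, whose median was 0.04, and without the peaks at the lowest concentration the median of 7 members was 1.27. Regions that were higher included *and1*, a fin fold gene (6.30 beside the lowest value), and *krt18* (5.95 against 0.90), and those of *col1a1a* and *foxi1* were lower. Hox genes had 10 members between -2.64 and 1.58, of which 6 were higher, beside 58.1% of all peaks of these genes. Ribosomal protein genes, which every cell uses, had 13 members, of which 4 were higher (median -1.42), beside 43.3% of all peaks of these genes, and *rps16* had the largest difference, with 6.41 against 1.80.

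MicroRNA genes carried 135 members at 75 genes. A microRNA is cut from a hairpin in a longer transcript and represses messenger RNAs that pair with its seed. The start site given for such a gene is the start of the hairpin, not the promoter of the transcript, so distances here are to the hairpin. In *kdrl*:GFP+ cells 36 of the 135 were higher, 13 were above 3 (9.63%) and 35 below -3 (25.9%), with a median of -1.92. Of all 885 peaks of microRNA genes, 34.4% were higher, 127 were above 3 and 182 below -3.

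**Figure D4:**
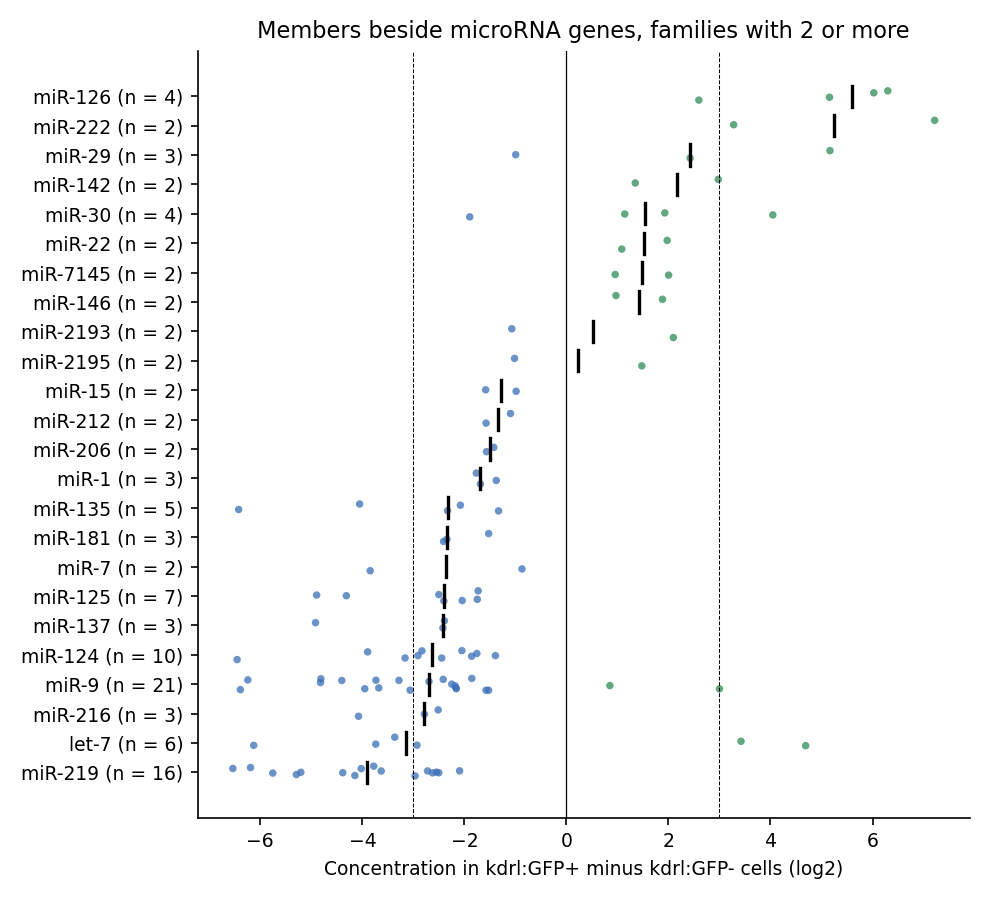
Difference in concentration (*kdrl*:GFP+ minus *kdrl*:GFP- cells, log2) of members beside microRNA genes, for families with 2 or more members, ordered by the median (black bar), with each point 1 peak and dashed lines at 3 and -3. The 4 regions of miR-126 lie from 2.60 to 6.30 and the 16 of miR-219 from -6.54 to -2.09.

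No list divided microRNAs by tissue, and the families below were chosen by their values or their number of members. At *mir126a*, which encodes a microRNA abundant in endothelium, all 4 members were higher, with 6.99 against 0.69, 8.98 against 2.95, 9.40 against 4.24 and 6.65 against 4.06. The largest difference of any microRNA gene was that of *dre-mir-222*, with 7.44 beside the lowest value in *kdrl*:GFP- cells (7.22). The related genes *mir222b* and *dre-mir-221* had differences of 3.28 and 4.46. The blood microRNA gene *mir150* had 7.36 against 0.71, and *mir142a*, a microRNA gene of blood cells, had 2 members that were higher by 1.35 and 2.98.

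The families with most members were mostly lower. The miR-219 family, known in oligodendrocytes, had 16 members at 3 genes, all lower (median -3.90), and *mir219-1* alone had 8, the largest number of any promoter. These 8 ran from 4020 bp upstream to 8444 bp downstream of the hairpin and from -6.54 to -2.55, and 2 were at the lowest value in *kdrl*:GFP+ cells. The miR-9 family had 21 members at 6 genes, of which 19 were lower (median -2.69) and 2, beside *mir9-2* and *mir9-5*, were higher, and all 5 of *dre-mir-9-1* were lower by 3 or more. The miR-124 family, a marker of neurons, had 10 members at 4 genes, all lower (median -2.64), with *dre-mir-124-4* at 6.09 in *kdrl*:GFP- cells beside the lowest value. All 7 members of miR-125, all 5 of miR-135 and all 3 each of miR-137, miR-181 and miR-216 were lower too. The let-7 family was divided, with 6 members at 5 genes, of which 4 were lower, 3 below -3 and 2 above 3. For miR-30, 3 of 4 members were higher, and for miR-29, 2 of 3. The muscle microRNAs were lower by less, at all 3 members of miR-1 (median -1.69) and both of miR-206.

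Regions that shared a promoter mostly shared a direction. Of 597 promoters with 2 or more members, 173 had all of them higher in *kdrl*:GFP+ cells, 293 had all lower and 131 were mixed, so that 78.1% lay on 1 side. Among the 48 promoters with 4 or more, 6 were all higher, 30 all lower and 12 mixed, and 10 of the 30 had 1 or more members within the shift of all peaks. Besides *cx39.4* and *zgc:110340*, the 6 that were all higher were *mir126a*, *lta4h*, a leukotriene enzyme gene, *marveld1* and *actb1*. Neighbouring members less than 1 kb apart lay on the same side of 0 in 181 of 201 pairs (90.0%). This share was 82.0% from 1 to 5 kb (478 pairs), 79.1% from 5 to 10 kb (139 pairs) and 64.5% from 10 to 50 kb (299 pairs). At 50 to 500 kb it was 49.5% (1197 pairs). Pairs with the same nearest promoter and pairs with different ones had similar shares at most of the shorter gaps. These were 90.2% (193) and 87.5% (8) under 1 kb, and 81.9% (459) and 84.2% (19) from 1 to 5 kb. They were 81.8% (110) and 69.0% (29) from 5 to 10 kb, and 64.2% (53) and 64.6% (246) from 10 to 50 kb. Whether a shared promoter added to closeness was not tested. Members closer to each other were thus more often alike, and peaks of 1 neighbourhood are not independent of each other.

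Differential peaks at the promoter itself mostly went with the members. Only 285 of the 2401 promoters with a member had such a peak, and the others could not be compared. Where there was one, 387 of 451 members (85.8%) lay on the same side as the mean of those peaks. The correlation was 0.63 across these members, which share libraries and promoters. The share was 92.1% for members within 2 kb (63), 87.6% from 2 to 5 kb (177) and 82.5% from 5 to 10 kb (211). Against peaks in the first intron it was 72.6% (543 members, correlation 0.43) and against later introns 66.1% (829 members, correlation 0.32). For exon peaks it was 71.9% (420 members, correlation 0.43). Peaks at gene ends were close to promoter peaks in this, at 83.6% (189 members, correlation 0.64). The *tmem88a* promoter, for example, was higher by 8.01, beside members from 1.71 to 8.90, and that of *nr2e1* was lower, with 6.80 against 8.80, beside 4 members from -8.93 to -4.11.

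**Figure D5:**
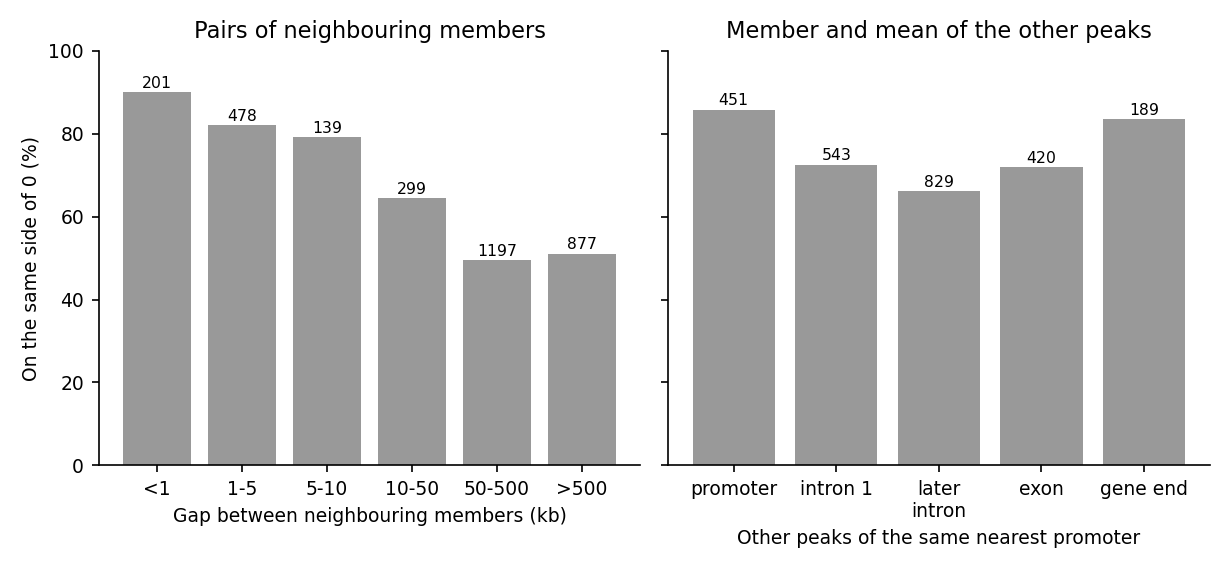
Percent of pairs of neighbouring members on the same side of 0, by the gap between them (left), and percent of members on the same side as the mean of the other peaks assigned to the same promoter, by where those peaks lie (right), with the number of pairs or members above each bar. The share falls from 90.0% of pairs under 1 kb apart to 49.5% of pairs 50 to 500 kb apart, and is 85.8% against promoter peaks and 66.1% against later introns.

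Exceptions had an intergenic region opposite to the promoter. The *mef2cb* promoter was lower in *kdrl*:GFP+ cells (3.93 against 6.52), whereas its member 7085 bp upstream was higher by 5.75. At *mylpfa*, a fast muscle myosin gene, the promoter was lower (difference -2.51), and both members had the lowest value in *kdrl*:GFP- cells, with 4.83 and 4.98. The *irx4b* and *mir27b* promoters differed by -1.57 and -1.72 beside members of 2.01 and 2.43. In the reverse direction, the promoters of *nrp1b*, a semaphorin and VEGF co-receptor gene, and of *foxa1* differed by 2.11 and 1.05, beside 1 member of -2.02 and 3 members from -1.79 to -1.42. At *jag1a* both were lower, but the promoter differed by -1.02, within the shift of all peaks, and the member 1603 bp upstream by -5.70.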

How the data were processed

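ATAC-seq reads of sorted *kdrl*:GFP+ and *kdrl*:GFP- cells and of genomic DNA were trimmed by the authors with Trimmomatic 0.32 and mapped to Zv9 with BWA 0.7.12. The authors called peaks per sample against the genomic DNA, and compared the groups with DiffBind (edgeR method). Peaks had been annotated to the nearest RefSeq promoter, and HOMER is named in the submitters' processing notes. Concentrations were deposited as the log2 of a group's mean of normalized reads. The scaling of libraries, any removal of duplicates and any shift of insertion sites are not given in the sources used here. The fold and p-value columns of the authors' comparison were not used.

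Here the 2 concentrations were subtracted, and members were counted by direction, past a log2 difference of 3, by distance and by list. The members and the lists were chosen with earlier results of these data known. No test was made, since only pooled values were at hand. Genes were named as printed or through the RefSeq annotation of GRCz12tu, which matched 2998 of 3216 members (93.2%) and was used for names only. A gene table of 14612 genes gave 14453 gene spans, and 6 per-sample columns in it, which no label of the series matches, were left out. That table also holds fold changes and p-values of a comparison by the authors, which were not used. After values were seen, 2 false matches of names were removed and let-7 genes were added to the microRNA list. Named regions were those with the 8 largest differences in each direction, the 4 largest of each list, all members of listed genes with 3 or more, the 5 highest in both populations, the 5 genes with most members, 2 on each side of the distance limit and up to 8 microRNA genes. Other regions of listed genes named in the text were chosen after their values were seen. The alternatives tried were other distance limits and thresholds, 1 member per promoter, centring on the median of all peaks and leaving out low concentrations. Promoter motifs, which were planned, were not analysed here. The counting steps were tested on simulated data. Python 3.11.15, numpy 2.4.6, pandas 2.3.3, scipy 1.17.1 and matplotlib 3.10.9 were used.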

Additional observations from a re-analysis of the deposited data

How the results depend on the processing

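The values rest on pooled concentrations, so leaving out a library was not possible. No paired analysis was possible because only pooled concentrations were analysed. The study notes that some libraries of both groups came from the same sort, which the sample labels used here do not mark. Of 40 alternatives for the counts over all members, 22 stayed within the 95% interval of the reported share (42.0 to 45.5%) or median, or within 1.5 times the reported count. These intervals, and those of the lists below, count each peak as independent, although neighbouring peaks are not. They served as limits for comparing alternatives and measure no spread between libraries. The share higher in *kdrl*:GFP+ cells (43.8%) was 46.1% with 1 member per promoter (2401), 46.6% without low concentrations (2460 members), and 50.4% after centring on the median of all peaks, which added 1.19 to every difference and put 50.0% of all peaks above 0. The median (-1.17) was -1.07, -1.04 and 0.011 under these 3. Against 566 members above 3 and 435 below -3, centring gave 970 and 192, a threshold of 2 gave 881 and 899, and a threshold of 4 gave 359 and 207. A limit of 5000 bp gave 237 and 194 of 1487 members, and a limit of 20000 bp gave 1157 and 884 of 6167. Counts under these 2 limits change with the number of members, and the shares higher were 42.4% and 44.6%. Below -3 there were 265 with 1 member per promoter and 286 without low concentrations. The excess of members lower in *kdrl*:GFP+ cells was thus lost on centring, where promoters with 2 or more members were all higher in 193 cases and all lower in 231. Of 32 alternatives for the lists, 31 stayed within the limits, and the exception was the neural list after centring, 12.6% higher.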
